A study of Mus musculus with 8 samples.

Results

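The cholesterol and fatty acid synthesis genes were taken from the deposited count table by symbol. All 33 listed genes were found among the 49040 of the table, and all 33 were among the 14672 tested after the filter on low counts. They comprise the factors that control lipid synthesis (5 genes), the mevalonate steps (6), the later sterol steps (11), the supply of acetyl-CoA and the making of fatty acids (4), the enzymes that desaturate and lengthen fatty acids (5) and the sterol exporters (2). RNA sequencing compared CD4+ T cells of 2 genotypes, wild type (WT) and Ikzf4-/- (KO), both labelled as strain C57BL/6J. The protein made from Ikzf4 is Eos, which binds DNA through zinc fingers and belongs to the Ikaros group of factors. Naive cells of either genotype had been stimulated with plate-bound antibodies to CD3 and CD28 under Th1-polarizing conditions for 72 h. There were 4 libraries of either genotype, and the titles number them 1 to 4. The labels give neither the age nor the sex of the mice, nor whether a number stands for an animal, a litter or a day, nor how the knockout allele was made, so the spread behind each p-value is that of these libraries and may be partly technical.

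Cells make cholesterol from acetyl-CoA through mevalonate, squalene and lanosterol. The proteins SCAP and INSIG hold the SREBP factors in the endoplasmic reticulum when sterols are plentiful; when sterols run low, the SREBPs move to the Golgi, are cut there and switch on sterol and fatty acid synthesis genes. Oxysterols instead act through the nuclear receptors LXR, which switch on the exporters ABCA1 and ABCG1 and several genes of fatty acid desaturation. Activated T cells need sterol and fatty acid synthesis to build membranes as they grow and divide.

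Library totals ran from 25227017 to 53149322 counts, and the 33 genes together took 0.389% to 0.579% of them. Ikzf4 stood at 41.1 to 54.9 CPM (counts scaled to a common library size with TMM factors) in the WT libraries and at 2.14 to 4.88 CPM in the KO libraries, as labelled. The 6 defining T cell genes summed to 1980 to 2577 CPM in WT and 1969 to 2863 CPM in KO. Same-numbered WT and KO libraries deviated together from their group means, and a fit with the number as a block is therefore given beside the fit with genotype alone where it changes a call. The libraries numbered 2 stood apart from the other 6: Xist, the transcript of the inactive X chromosome, was at 503 CPM in WT 2 and 588 CPM in KO 2 and at 0.57 CPM or less elsewhere, and the Y-linked Ddx3y was at 61.0 to 91.7 CPM in the other 6 libraries and at 0.0282 CPM in WT 2 and 0 in KO 2. Sex and anything else that the number 2 stands for cannot be told apart.

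By edgeR, the sterol synthesis genes showed no called difference between the genotypes over all 8 libraries, whereas 3 genes of fatty acid modification and sterol export were lower in KO once same-numbered libraries were compared. With genotype as the only term, edgeR's quasi-likelihood test called 0 of the 33 genes at an adjusted p of 0.05, where 0.157% of all genes tested were called, and 1 of the 33 had an unadjusted p under 0.05, against 8.1% of all genes. DESeq2 without the block also called 0. With the block, edgeR called Elovl6, Scd2 and Abca1 lower and none of the 33 higher. That is 9.09% of them, against 4.01% of all genes called lower and 2.69% called higher. DESeq2 with the block called these 3 with Scd1 and Abcg1 lower, and Idi1, Acaca and Fasn higher. Without the 2 libraries numbered 2, the blocked edgeR fit called 4 of the 33 lower and 1 higher, against 6.33% and 3.69% of the genes then tested, with Abcg1 (adjusted p = 0.0178) and Idi1 (adjusted p = 0.04) added. In no member did the 4 KO libraries lie wholly above or below the 4 WT libraries, which held for 4.96% of all genes. KO was the higher in all 4 same-numbered pairs for 6 of the 33 genes and the lower in all 4 for 6 (18.2% each). Over all genes tested these shares were 15.8% and 14.8%, so agreement of the 4 pairs was nearly as common outside the list. The median log2 change of the 33 genes was 0.06, beside 0.00 over all genes tested (-0.003141 before rounding). Of the 33 estimates 22 were above 0, as were 7265 of the 14672 over all genes. The pairs did not agree on this: 9 of the 33 were higher in KO in pair 1 (median log2 difference -0.065), and 21 in each of pairs 2, 3 and 4.

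**Figure D1:**
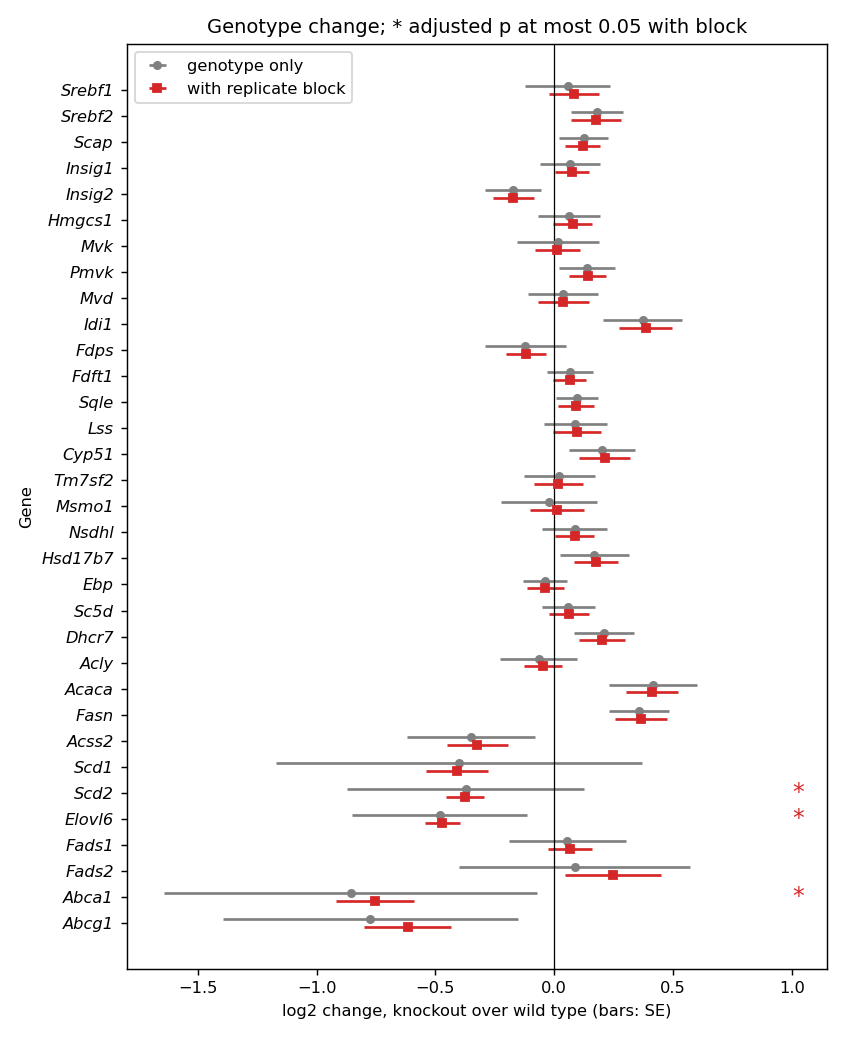
The log2 change in level, knockout over wild type, of each of the 33 genes, with bars of 1 standard error; grey circles are from the fit with genotype only and red squares from the fit with the replicate number as a block. Stars mark Elovl6, Scd2 and Abca1, the 3 genes called by edgeR with the block. The grey circles of the mevalonate and sterol genes in the upper part run from -0.12 (Fdps) to 0.37 (Idi1). Idi1 lies about as far above 0 as the starred Scd2 (-0.37) lies below it. The grey bars are widest for Scd1, Abca1 and Abcg1.

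Among the controlling factors, Srebf2, which encodes the SREBP that chiefly drives sterol synthesis, stood at 527, 422, 496 and 499 CPM in WT 1 to 4 and at 535, 645, 511 and 512 CPM in KO 1 to 4. The KO value was the higher in all 4 pairs, but the log2 differences were 0.02 to 0.04 in the pairs numbered 1, 3 and 4 and 0.61 in the pair numbered 2, and the gene was not called (log2 change 0.18 ± 0.11 (SE), adjusted p = 0.749; with the block 0.18 ± 0.11, adjusted p = 0.379; edgeR). Srebf1, which encodes the SREBP tied more to fatty acid synthesis, was at 254, 146, 248 and 238 CPM in WT and 260, 203, 252 and 206 CPM in KO. WT 2 was the low library there, and the groups overlapped. Insig1, an SREBP target whose product retains SCAP, was at 177, 140, 147 and 124 CPM in WT and 170, 163, 148 and 136 CPM in KO. Library 1 was the highest and library 4 the lowest in both genotypes. Scap and Insig2 changed by 0.12 ± 0.10 and -0.17 ± 0.12 on the log2 scale (edgeR adjusted p = 0.857 and 0.789); Insig2 was lower in KO in all 4 pairs.

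The mevalonate and sterol genes had log2 changes from -0.12 (Fdps) to 0.37 (Idi1) with genotype only. Of the 17 estimates 14 were above 0, as were 7265 of the 14672 over all genes tested. Of the 17, edgeR called none with or without the block over all 8 libraries, and DESeq2 with the block called Idi1. Hmgcs1, the enzyme that makes HMG-CoA, was at 309, 333, 277 and 217 CPM in WT and 306, 311, 294 and 275 CPM in KO. The WT libraries spread more widely than the KO libraries, and their means were 284 ± 50.1 and 296 ± 16.0 CPM (SD, n = 4 each). Sqle, the squalene epoxidase that carries out the first oxygen-requiring step, was at 133, 123, 132 and 122 CPM in WT and 123, 134, 149 and 139 CPM in KO. Its log2 change was 0.10 ± 0.09 (edgeR adjusted p = 0.882), the smallest standard error of the 33 genes.

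Idi1, the isomerase that balances the isoprenoid building blocks, had the largest difference of the sterol branch. Its levels were 59.5, 83.3, 55.1 and 52.2 CPM in WT and 66.3, 91.3, 79.6 and 86.7 CPM in KO. KO was the higher in all 4 pairs, by 0.13 to 0.73 on the log2 scale, although WT 2 exceeded KO 1 and KO 3. The log2 change was 0.37 ± 0.17 without the block and 0.38 ± 0.11 with it (edgeR adjusted p = 0.625 and 0.0785), so Idi1 was not called by edgeR. DESeq2 with the block called it (adjusted p = 0.0267). The pseudogene Gm13502 is identical to Idi1 over 684 bases but held 126 counts over all libraries against 20156 for Idi1.

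The other 14 sterol branch genes had log2 changes from -0.12 (Fdps, which joins isoprenoid units to farnesyl diphosphate) to 0.21 (Dhcr7, the reductase that ends one arm of cholesterol synthesis). Cyp51, the lanosterol demethylase, was the most abundant of the branch per length, with 71.3 ± 13.4 CPM per kilobase of exon in WT and 81.9 ± 7.52 in KO. Tm7sf2, a sterol reductase, was the least abundant, with 2.27 ± 0.24 and 2.30 ± 0.30 CPM per kilobase. Fdft1, the squalene synthase, shares 774 exon bases with Ctsb on the opposite strand, and Ctsb held 88293 counts over the libraries against 26889 for Fdft1, so its level is uncertain because the strand setting of the counting is not given in the sources used here.

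The promoter of Hmgcs1 is shown as a reference for the sterol branch, because it carries a sterol regulatory element. The motif searched was TCACNCCAC, on both strands, in the 250 bases before and 50 after each start site (RefSeq, GRCm38.p6, chr13:119690101-119690400, plus strand, gene direction). Capitals mark the match, which lies 137 to 129 bases before the start.
Hmgcs1: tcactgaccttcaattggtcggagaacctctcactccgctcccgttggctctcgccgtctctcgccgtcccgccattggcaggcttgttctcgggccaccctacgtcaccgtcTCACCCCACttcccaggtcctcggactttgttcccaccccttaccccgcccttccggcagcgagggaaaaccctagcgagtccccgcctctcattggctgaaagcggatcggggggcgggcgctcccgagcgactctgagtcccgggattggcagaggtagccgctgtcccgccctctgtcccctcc
Of the 26 members with a promoter entry, Hmgcs1 alone held that motif, and 1.44% of all genes with an entry did. The NF-Y motif CCAAT, the site of a factor that works beside SREBPs, stood in a promoter of 21 of the 26 (80.8%) and of 41.1% of all genes, and GGGCGG, a GC box, in 22 of 26 (84.6%) and 38.2%. These matches are descriptions of sequence and were not tied to any change.

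Of the fatty acid genes, the carboxylase and the synthase were higher in KO in every pair, but edgeR called neither over all 8 libraries. Fasn, the fatty acid synthase, was at 591, 440, 633 and 531 CPM in WT and 609, 706, 717 and 778 CPM in KO. Only WT 3 exceeded the lowest KO library. The log2 change was 0.36 ± 0.13 without the block and 0.36 ± 0.11 with it (edgeR adjusted p = 0.509 and 0.0856), and a 2-sided exact permutation test of the 8 libraries gave p = 0.0571, unadjusted. Acaca, the acetyl-CoA carboxylase that commits carbon to fatty acids, was at 92.6, 70.6, 111 and 104 CPM in WT and 96.9, 115, 135 and 159 CPM in KO. Its log2 change was 0.42 ± 0.18 and, with the block, 0.41 ± 0.11 (edgeR adjusted p = 0.618 and 0.0592), the largest positive estimate of the 33. Both pair differences were near 0 for the libraries numbered 1, at 0.07 for Acaca and 0.05 for Fasn on the log2 scale, and from 0.18 to 0.70 in the other 3 pairs. DESeq2 with the block called both (adjusted p = 0.0105 for Acaca and 0.0256 for Fasn), so these calls rest on the tool. Without pair 1, edgeR with the block called Acaca too (adjusted p = 0.0434). A processed pseudogene, Gm5182, matches Acaca at 99.2% identity over 6118 bases, which leaves the Acaca count uncertain.

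Acly, which cleaves citrate to acetyl-CoA, and Acss2, which makes acetyl-CoA from acetate, were not called. Acly stood at 486 ± 101 CPM in WT and 465 ± 58.8 CPM in KO (SD, n = 4 each). Acss2 was low, at 10.5 ± 3.39 and 8.23 ± 2.09 CPM, and lower in KO in all 4 pairs (log2 change with the block -0.32 ± 0.13, edgeR adjusted p = 0.187). Per length, Acly was among the most abundant of the 33 genes, with 92.1 ± 19.0 CPM per kilobase in WT, second to Scd2 at 178 ± 94.3, although their spreads overlap.

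Elovl6, the elongase that takes palmitate to stearate, was lower in KO in every pair by a similar amount. It stood at 61.0, 40.9, 97.5 and 112 CPM in WT and at 43.0, 30.9, 74.7 and 74.5 CPM in KO. Each KO library lay below its same-numbered WT library, by 0.38 to 0.59 on the log2 scale, while the groups as a whole overlapped because the numbers differed more than the genotypes. With the block Elovl6 fell by 0.47 ± 0.07 on the log2 scale (1.39-fold; edgeR adjusted p = 0.00813); without it the change was -0.48 ± 0.37 (adjusted p = 0.83). It was the only member whose blocked call held whichever pair was left out (adjusted p = 0.00661 to 0.0466).

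The 2 stearoyl-CoA desaturases, which put the first double bond into saturated fatty acids, differed widely in level. Scd2 was at 709, 381, 1336 and 1468 CPM in WT and 526, 303, 1193 and 986 CPM in KO. It was lower in KO in all 4 pairs and fell by 0.38 ± 0.08 on the log2 scale with the block (1.30-fold; edgeR adjusted p = 0.0264), against -0.37 ± 0.50 without it (adjusted p = 0.931). Leaving out pair 1 or pair 4 ended the blocked call (adjusted p = 0.104 and 0.108). Scd1 was at 33.7, 7.61, 82.4 and 63.0 CPM in WT and 26.0, 6.63, 75.7 and 33.2 CPM in KO. It too was lower in KO in every pair, but was not called by edgeR with the block (-0.41 ± 0.13, adjusted p = 0.111); DESeq2 with the block called it (adjusted p = 0.0469). The longest Scd2 transcript matches a Scd1 transcript at 95.5% identity over 623 bases, and how multi-mapping reads were counted is not given in the sources used here, so part of the Scd1 count may belong to the far more abundant Scd2.

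Fads1 and Fads2, the desaturases of polyunsaturated fatty acids, were not called in the genotype comparison. Fads2 was at 51.1, 11.6, 68.2 and 58.4 CPM in WT and 49.8, 26.8, 74.7 and 49.7 CPM in KO. Its pair differences ran from -0.23 to 1.21 on the log2 scale, the latter in the pair numbered 2 (with the block 0.25 ± 0.20, edgeR adjusted p = 0.531). Fads1 changed by 0.07 ± 0.09 with the block (edgeR adjusted p = 0.729).

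Abca1, which exports cholesterol to apolipoprotein A-I, had the largest estimate of the 33 genes. It stood at 29.5, 4.68, 61.4 and 57.2 CPM in WT and at 21.7, 3.60, 38.0 and 21.3 CPM in KO. It was lower in KO in all 4 pairs, from -0.37 in the pair numbered 2 to -1.42 in the pair numbered 4 on the log2 scale. Abca1 fell by 0.75 ± 0.16 with the block (1.69-fold; edgeR adjusted p = 0.0318) and changed by -0.86 ± 0.78 without it (adjusted p = 0.879). Leaving out pair 1 or pair 3 ended the blocked call (adjusted p = 0.0626 and 0.103). Abcg1, which exports cholesterol to high-density lipoprotein, was at 11.3, 3.41, 26.9 and 23.5 CPM in WT and 7.93, 3.60, 16.6 and 10.05 CPM in KO. The pair numbered 2 showed almost no difference, the other 3 were lower in KO, and the gene was not called by edgeR (-0.62 ± 0.18 with the block, adjusted p = 0.0891). DESeq2 with the block called both exporters (adjusted p = 0.000278 and 0.0211).

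**Figure D2:**
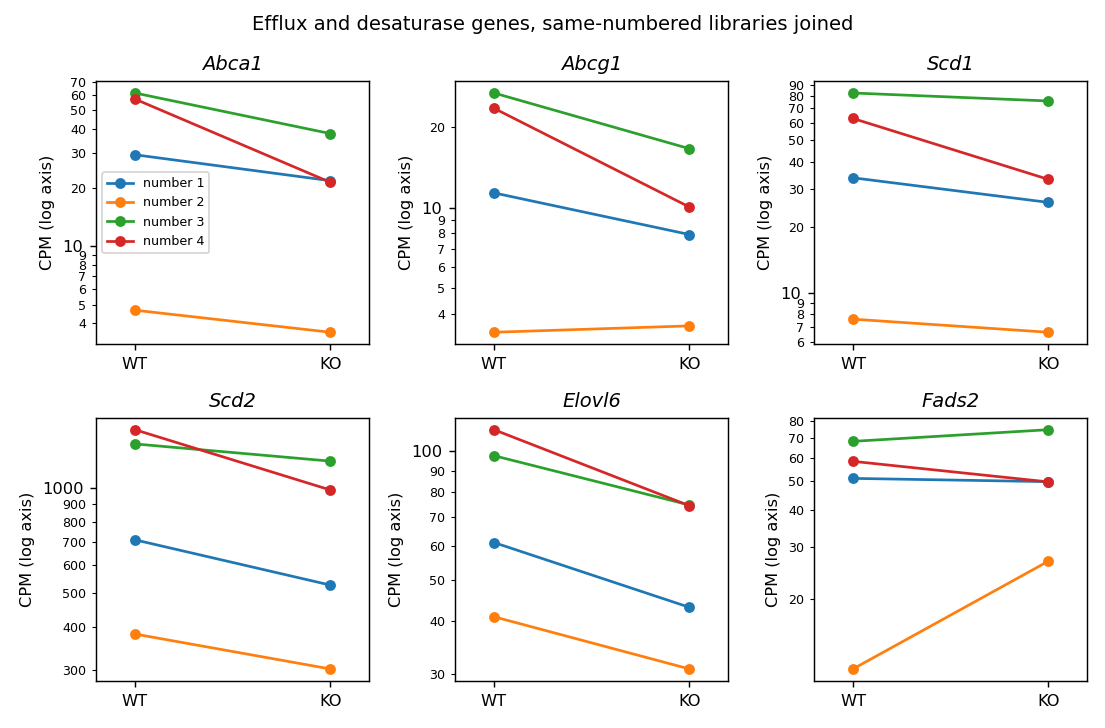
Levels in CPM on a log axis of 6 genes in wild type and knockout, with a line joining each same-numbered pair of libraries. Elovl6, Scd2, Scd1 and Abca1 fall from wild type to knockout along all 4 lines, and the libraries numbered 2 lie lowest in every panel.

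The Abca1 promoter is shown because Abca1 is a well-known LXR target and spread widely between libraries. The motif searched was a pair of direct half-sites spaced as LXR binds them, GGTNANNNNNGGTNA, on both strands. In the RefSeq promoter (GRCm38.p6, chr4:53159846-53160145, minus strand, gene direction) capitals mark a match on the opposite strand, 67 to 53 bases before the start.
Abca1: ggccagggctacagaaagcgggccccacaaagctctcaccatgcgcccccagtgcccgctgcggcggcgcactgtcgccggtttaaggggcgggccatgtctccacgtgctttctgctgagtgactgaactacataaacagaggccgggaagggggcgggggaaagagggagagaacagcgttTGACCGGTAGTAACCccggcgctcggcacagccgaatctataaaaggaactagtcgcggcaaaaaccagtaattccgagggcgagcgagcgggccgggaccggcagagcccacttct
The Elovl6 promoter is shown as that of the member with the lowest blocked p (GRCm38.p6, chr3:129532136-129532435, plus strand, gene direction). It held neither this motif nor the sterol regulatory element and so has no capitals. The searched patterns matched only 3 and 1 of the 26 members with an entry. A missing match therefore cannot decide whether LXR or SREBPs act on Elovl6.
Elovl6: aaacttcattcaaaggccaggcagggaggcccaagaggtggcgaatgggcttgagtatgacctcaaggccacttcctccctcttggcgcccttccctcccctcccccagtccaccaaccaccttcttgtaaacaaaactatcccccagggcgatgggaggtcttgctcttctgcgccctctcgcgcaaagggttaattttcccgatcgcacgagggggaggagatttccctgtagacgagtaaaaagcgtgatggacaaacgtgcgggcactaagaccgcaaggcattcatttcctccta
Promoters of 3 of 26 members, Srebf1, Fasn and Abca1, held the direct repeat (11.5%), against 0.818% of all genes with an entry. No overlap with the other motifs was present at these matches. Of these 3 genes, both blocked fits called Abca1 lower in KO, DESeq2 with the block alone called Fasn higher, and neither blocked fit called Srebf1. Any part of the motif in these levels was not tested.

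Desaturase and exporter levels differed more between replicate numbers than between genotypes. An F test of the number in the blocked fit called 12 of the 33 genes (36.4%), against 28.8% of all genes tested. Without the filter on low counts it called 19, against 22.9% of the genes then tested. All 5 genes of desaturation and elongation and both exporters were among the 12, with edgeR adjusted p from 0.000129 for Scd2 to 0.0084 for Fads2, whereas 0 of the 5 controlling factors and 3 of the 17 mevalonate and sterol genes were called. Srebf1 and Insig1 were just over the threshold there (edgeR adjusted p = 0.0606 and 0.0636). Without the libraries numbered 2, a choice made after they were seen to stand apart, the same test called 13 members, against 30.3% of the genes then tested. Among them were these 7 genes, and the others were Insig1 (edgeR adjusted p = 0.0129), Mvk, Mvd, Nsdhl, Acly and Acss2. The absence of controlling factors from the calls therefore did not hold in that fit.

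The libraries numbered 2 were the lowest of their genotype, in WT and in KO alike, for all 7 genes. Abca1 in WT 2 was 9.48% of the mean of WT 1, 3 and 4, and in KO 2 it was 13.4% of the mean of KO 1, 3 and 4. For Scd1 the shares were 12.8% and 14.7%, for Scd2 32.5% and 33.6%, and for Elovl6 45.3% and 48.2%. Over the 33 genes, 11 were lowest in number 2 in both genotypes (33.3%, against 15.5% of all genes tested) and 4 were highest (12.1%, against 15.1%). Hmgcs1 in WT 2 and KO 2 stood at 125% and 107% of the other 3, and Msmo1, a sterol demethylating enzyme, at 158% and 122%. Transcripts of 62 other genes resemble Msmo1 at 95% identity or more over at least 100 bases. The longest match of each ran 107 to 203 bases of the 2969 in the longest Msmo1 transcript, which leaves its count uncertain over such stretches. Of the 17 mevalonate and sterol genes, Fdps alone was lowest in number 2 in both genotypes. The libraries numbered 1 also lay below those numbered 3 and 4 in both genotypes for Scd1, Scd2, Elovl6, Fads1 and Abcg1. Both libraries 1 and 2 lay below both 3 and 4 in either genotype for 9 of the 33 genes (27.3%, against 19% of all genes tested).

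**Figure D3:**
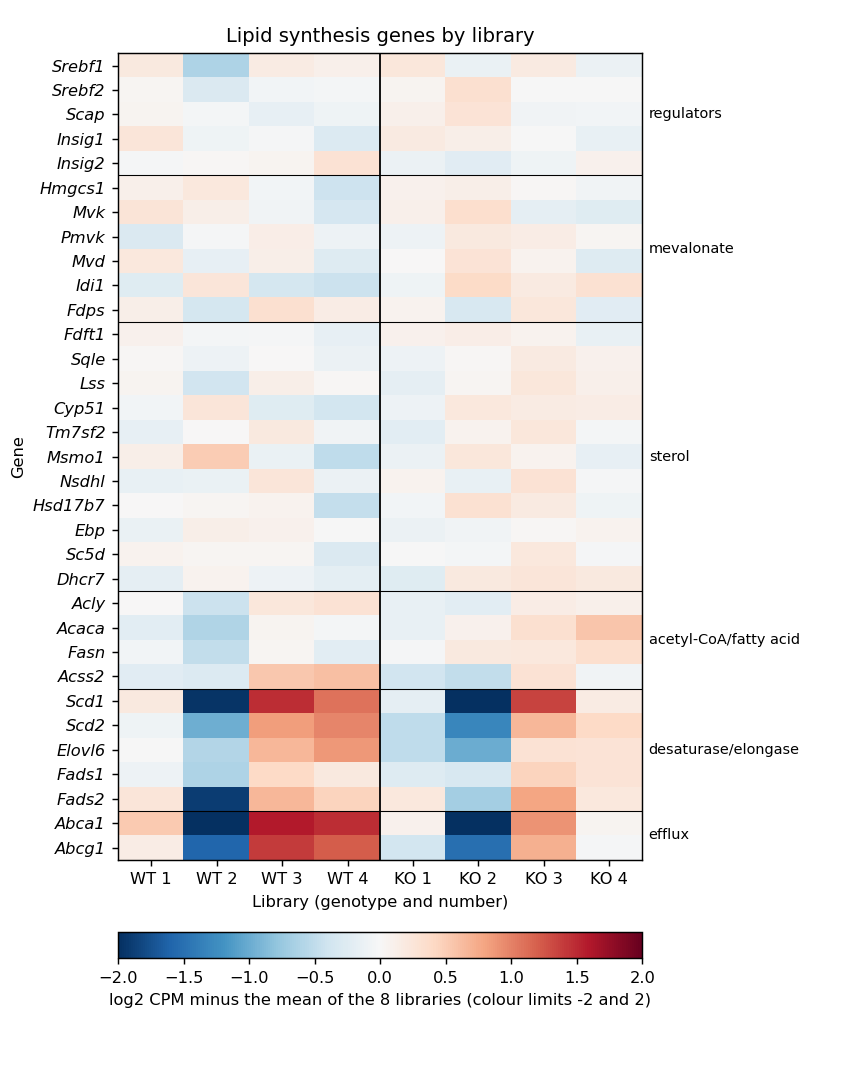
Log2 CPM of the 33 genes in the 8 libraries, each gene centred on its mean, with genes grouped by role and colour limits of -2 and 2. The desaturase and exporter rows are darkest blue in WT 2 and KO 2 and red in WT 3, WT 4 and KO 3, while the sterol rows stay pale.

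As a description, the number accounted for 96.2% of the variance of log2 CPM over the 8 libraries for Scd1, 91.4% for Abca1 and 84.5% for Elovl6, and genotype for 2.38%, 6.53% and 15.1%. The median share of the number was 75.2% over the 33 genes and 65.2% over all genes tested. Fasn was the member with the largest share for genotype, 54.5%, and Srebf2 the one with the smallest share for the number, 4.08%.

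**Figure D4:**
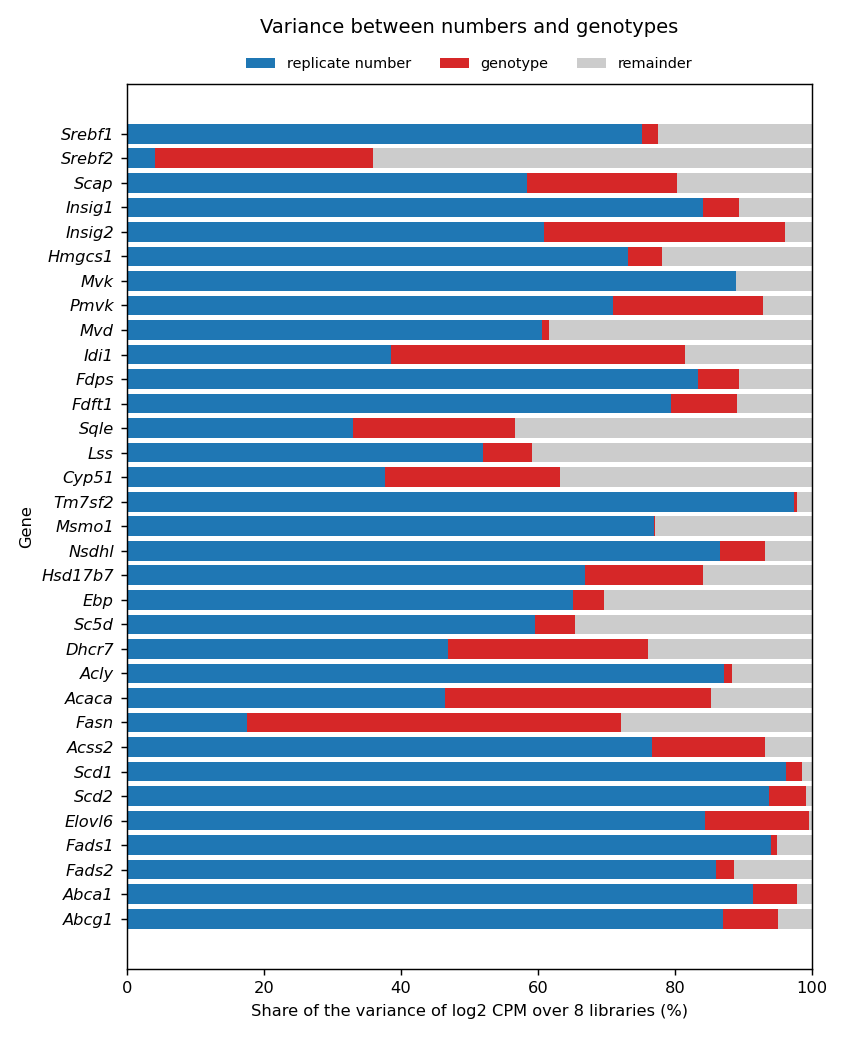
Share of the variance of log2 CPM over the 8 libraries that lies between replicate numbers (blue), between genotypes (red) and in the remainder (grey), for each of the 33 genes. Blue fills most of the bar for the desaturases and exporters, and red is widest for Fasn.

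Further lipid genes, 41 in all, were examined beside the 33, and all passed the filter on low counts. With edgeR none was called without the block (DESeq2 called 1 lower). With the block edgeR called 3 of the 41 lower and 0 higher, against 4.01% and 2.69% of all genes tested. Me1, the malic enzyme that supplies NADPH for fatty acid synthesis, was at 7.07, 2.54, 10.5 and 7.29 CPM in WT and 2.22, 1.43, 4.17 and 1.32 CPM in KO. It fell by 1.55 ± 0.24 on the log2 scale (2.93-fold; edgeR with the block, adjusted p = 0.00819). Dgat1, which makes triglyceride, fell by 0.90 ± 0.20 (adjusted p = 0.0363), from 101 ± 52.2 to 49.2 ± 20.4 CPM. Npc2, which binds cholesterol in the lysosome, fell by 0.51 ± 0.11 (adjusted p = 0.0338), from 584 ± 69.4 to 418 ± 109 CPM. All 3 were lower in KO in 4 of 4 pairs. The edgeR call of Me1 held whichever pair was left out (adjusted p = 0.00548 to 0.0466). Dgat1 lost it without pair 1, 3 or 4 (adjusted p = 0.0983, 0.121 and 0.0575), and Npc2 without pair 2, 3 or 4 (adjusted p = 0.0549, 0.145 and 0.104). Of the LXR genes, Nr1h2 stood at 99.7 ± 11.9 and 103 ± 15.2 CPM, and Nr1h3 at 0.563 ± 0.124 and 0.310 ± 0.0725 CPM; neither was called. The 4 KO libraries of Nr1h3 all lay below the 4 WT libraries (log2 change -0.82 ± 0.31, edgeR adjusted p = 0.53). Such a separation, in either direction, held for 4.96% of all genes tested, and Nr1h3 was near the floor, at 0.227 to 0.720 CPM. Cpt1a, which brings fatty acids into mitochondria for oxidation, went the other way from Scd1 between numbers, with 60.7 CPM in WT 2 and 62.2 CPM in KO 2 against 24.9 to 34.8 CPM in the other 6 libraries.

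Markers of other cells moved with these groups in part. In bulk RNA, fewer cells of a type and less RNA per cell cannot be told apart. The 4 gamma-delta T cell genes all fell by edgeR with the block. They summed to 71.2, 54.8, 44.8 and 19.6 CPM in WT 1 to 4 and to 18.05, 19.8, 11.2 and 6.16 CPM in KO 1 to 4. Elovl6, Scd2 and Abca1 also fell with the block, but in WT they were higher in libraries 3 and 4 than in 1 and 2. In KO this held for Elovl6 and Scd2 and not for Abca1. Any part of gamma-delta T cells in the result was not tested. The 6 macrophage genes, from a cell type rich in ABCA1, summed to 3.94 to 4.68 CPM in WT and 2.81 to 7.12 CPM in KO, most of it Cd68, with Adgre1, Csf1r and Lyz2 at 1.62 CPM or less in every library. Their sum in WT 2 and KO 2, the libraries low in Abca1, was 4.65 and 7.12 CPM, of which Cd68 made up 3.52 and 5.39 CPM. Any part of macrophages in the Abca1 levels was not tested. The 4 mast cell and basophil genes summed to 13.5 CPM in WT 1 and 11.1 CPM in WT 3 and to 0.429 CPM or less elsewhere, and the 4 adipocyte and hepatocyte genes to 0.136 CPM or less everywhere. The sums of the 2 CD8 genes were 4.44 to 12.7 CPM in WT and 3.32 to 16.2 CPM in KO, those of the 4 B cell genes 1.11 to 1.69 and 0.378 to 7.98 CPM, those of the 3 NK cell genes 0.677 to 3.11 and 0.143 to 1.25 CPM, and those of the 3 dendritic cell genes 0.620 to 1.64 and 0.316 to 0.663 CPM. The 1 NK cell gene tested, Klre1, also fell with the block (log2 change -1.41 ± 0.30, edgeR adjusted p = 0.0285), a call lost without pair 1, 3 or 4 (adjusted p = 0.0638, 0.138 and 0.072); its part in the result was not tested. Ncr1 and Adipoq had no count in any library. The 10 genes of dividing cells summed to 3187 to 3678 CPM in WT and 3576 to 3968 CPM in KO, with 0 called for genotype.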

How the data were processed

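The authors deposited gene counts of 8 libraries beside their own DESeq2 comparison. The submitters' processing notes name STAR 2.5.2, Subread 1.5.2 with featureCounts, DESeq2 and the build GRCm38. The annotation, the strand setting and the handling of multi-mapping reads are not given in the sources used. Per the file headers, the authors' table also holds a mean normalized signal, log2 fold changes (WT over KO), a test score, p-values and adjusted p-values; it called 0 of the 33 genes (lowest adjusted p = 0.371).

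Counts were tested with edgeR 4.0.16 in R 4.3.3 (filterByExpr, TMM factors, quasi-likelihood, genotype only), with Benjamini-Hochberg adjustment over 14672 genes and a threshold of 0.05. Genes tested held 99.9% of counts. CPM values use TMM factors, log2 CPM a prior count of 2, and a level per kilobase the exon union of GENCODE M21 (GRCm38). Alternatives were the replicate block, DESeq2 1.42.0, RLE factors, other filters and libraries left out. Same-numbered libraries deviated together across genes (r = 0.612 to 0.732; the highest r between other numbers was 0.538), so the numbers pair the libraries by these values, not by the labels. No pair of libraries of a group was alike within sampling noise (chi-square per degree of freedom 15.9 or more). Members and lists were chosen with earlier results of these data known; genes given library by library are those called in either edgeR fit, the 2 largest changes in each direction and 10 fixed genes, and Fads2, chosen after its values were seen.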

Additional observations from a re-analysis of the deposited data

Results flagged for a closer look

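In groups of 4 libraries, a library was singled out where its gap to the nearest other, as a share of the group's range, exceeded the 95% critical value of Dixon, which chance gives in about 1 group in 20. Of the 33 genes in 2 groups, 6 such values appeared. Srebf1 was low in WT 2, at 146 CPM against 238 CPM in the next library. Nsdhl, a sterol dehydrogenase, was high in WT 3, at 35.5 CPM against 27.7 CPM. Hsd17b7 and Sc5d, enzymes of the later sterol steps, were low in WT 4, at 29.9 CPM against 41.8 CPM and at 68.8 CPM against 86.1 CPM. Sc5d was high in KO 3, at 97.0 CPM against 83.5 CPM. Dhcr7 was low in KO 1, at 32.1 CPM against 43.3 CPM.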

How the results depend on the processing

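The genotype calls moved with the replicate block and with the tool. All genes called numbered 23 with genotype only, 984 with the replicate block, 225 with DESeq2 and 1385 with DESeq2 and the block. For the 33 genes these fits called 0, 0, 0 and 3 higher and 0, 3, 0 and 5 lower, and for the 41 further lipid genes 0, 3, 1 and 4 lower. RLE factors and both other filters left the members' genotype counts at 0. Without a filter on low counts the test of the replicate number called 19 of the 33 in place of 12. Leaving out 1 library at a time, with genotype only, gave 14 to 24 calls over all genes, and the median log2 change of the 33 ran from 0.0087 to 0.10. Leaving out the pair numbered 1, 2, 3 or 4 with the block gave 622, 1437, 398 and 529 calls over all genes; 1, 4, 2 and 2 of the 33 genes fell and 1, 1, 0 and 0 rose, and 2, 4, 1 and 1 of the further lipid genes fell and 1, 1, 0 and 0 rose.

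Elovl6, Scd2 and Abca1 kept a negative log2 change under every alternative run. Of 594 estimates for single members, 43 in 15 genes changed sign, with no call on either side and sizes up to 0.238; the cause was not tested. Msmo1 changed from -0.023 to 0.013 with the block, to 0.014 with DESeq2 and the block, and to 0.095 and 0.11 without pair 1 or 2. With the block and without pair 2, log2 changes were -0.048 for Srebf1, -0.059 for Mvk, -0.092 for Mvd, -0.011 for Lss, 0.013 for Ebp, -0.0079 for Fads1 and -0.041 for Fads2; without pair 4 they were -0.0092 for Hmgcs1, -0.0098 for Mvk and -0.0016 for Sc5d. Over single libraries left out, the ranges were -0.10 to 0.13 for Srebf1, -0.0067 to 0.17 for Insig1, -0.049 to 0.15 for Hmgcs1, -0.11 to 0.11 for Mvk, -0.051 to 0.12 for Mvd, -0.0084 to 0.16 for Lss, -0.057 to 0.092 for Tm7sf2, -0.17 to 0.17 for Msmo1, -0.0024 to 0.18 for Nsdhl, -0.019 to 0.10 for Sc5d, -0.19 to 0.021 for Acly, -1.09 to 0.021 for Scd1, -0.11 to 0.20 for Fads1 and -0.24 to 0.31 for Fads2.

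With genotype only, standard errors of 0.50 to 0.78 on the log2 scale for Scd1, Scd2, Abca1 and Abcg1 limit what 4 against 4 libraries can show.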
